A study of Mus musculus with 13 samples.

Results

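Neuropeptide precursors and the proteins that process them were followed in ribosome-bound mRNA of the mouse medial habenula. The members were taken by symbol from a list of 36 genes: 25 precursors, 5 granins, 2 regulators of the prohormone convertases and 4 processing enzymes, out of 22682 symbols listed in every count table. Genes of the opioid, galanin and oxytocin groups were not part of the list. All 36 symbols occurred once in each table. Of these members, 19 reached a mean of 5 CPM in a group, and the other 17, all of them precursors, did not. CPM are gene counts scaled to each library's total over the symbols listed in every table.

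The study asked which mRNAs are translated in habenular cholinergic neurons with and without the receptor Gpr151. Medial habenula was dissected from adult mice carrying the transgene Chat-TRAP DW167. In a TRAP line (translating ribosome affinity purification) a GFP-tagged ribosomal protein is expressed under the control of a chosen gene, here the acetylcholine-synthesising enzyme Chat, and anti-GFP beads recover the mRNA bound to tagged ribosomes. The groups were 6 immunopurified (IP) libraries of Chat-TRAP mice with no Gpr151 deletion, called wild type here, 6 IP libraries of Gpr151-KO::Chat-TRAP mice, called knockout, and 1 library of total RNA from the Chat-TRAP homogenate (input). The controls carry the same transgene as the knockouts, and every library is a pool of 4 mice, or of 3 mice for libraries 852 and 855. No sex or treatment is given in the labels. Libraries are named by the numbers in their titles; 682, 683, 852 and 855 are called earlier, and 1091 to 1094 and 1099 to 1102 later.

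A neuropeptide is made as a longer precursor that enters the secretory pathway and is stored in dense-core vesicles. Convertases cut the precursor at basic residues, carboxypeptidase E trims the ends, and peptidylglycine alpha-amidating monooxygenase turns a terminal glycine into the amide that many peptides need for activity. Granins are acidic proteins packed into the same vesicles. The medial habenula is known for substance P neurons in its dorsal part and cholinergic neurons in its ventral part, both of which project to the interpeduncular nucleus.

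The coding stretches of the tachykinin peptides are shown because this family holds the most abundant precursor of the IP libraries, Tac2, and the precursor of substance P, Tac1. The sequences are from the GENCODE M21 transcripts on the GRCm38 build. Each line gives the last 30 coding bases of the mature peptide, and the capitals mark the last 5 codons, which encode the ending shared by the tachykinin family. An in-frame search for these codons followed by a glycine codon found 2 matches in Tac1, in order those of substance P and neurokinin A, and 1 in Tac2, that of neurokinin B.
Tac1 substance P, chr6:7556735-7556764, plus strand: cccaagcctcagcagTTCTTTGGATTAATG
Tac1 neurokinin A, chr6:7559101-7559130, plus strand: cataaaacagattccTTTGTTGGACTAATG
Tac2 neurokinin B, chr10:127729116-127729145, plus strand: gacatgcacgacttcTTTGTGGGACTTATG
Of the 30 tachykinin bases, neurokinin A shared 19 with neurokinin B and 17 with substance P.

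Gene counts summed to between 28375912 and 64388596 per IP library and to 54701790 in the input. Over the 22682 shared symbols, the level that a count of 0 still allows, 3 counts, was between 0.0502 and 0.121 CPM in the IP libraries, with only counting error covered. Gpr151 was at 479 ± 95.6 CPM in wild type IP and 155 ± 42.3 CPM in knockout IP (SD, n = 6 each), a log2 fold change of -1.63 ± 0.17 (SE; adjusted p = 0.00592, edgeR quasi-likelihood test with Benjamini-Hochberg adjustment). The labels do not say which bases of Gpr151 the deletion removes. Of 17 markers of cholinergic habenula neurons, 15 were at least 2 times the input in every wild type IP library. Libraries 1099, 1102 and 1091 stood apart, with the highest mean log2 CPM over 43 markers of non-neuronal cells, at 3.93, 3.63 and 3.28 against 1.18 to 2.59 in the other IP libraries.

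The most abundant precursor of the IP libraries was Tac2, which encodes neurokinin B. Its level per length, in CPM per kilobase of exon, was 532 ± 101 in wild type IP and 525 ± 252 in knockout IP (SD, n = 6 each), against 74.2 in the input. Next in wild type IP came Cpe, the trimming carboxypeptidase, at 201 ± 25.6 CPM per kilobase, and Nppa, the precursor of atrial natriuretic peptide, at 169 ± 60.4. Tac2 lay above Cpe in 6 of 6 wild type libraries and their ranges were apart. Nppa overlapped both of its neighbours in the order, lying below Cpe in 4 of 6 libraries and above the granin Chgb in 2 of 6.

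Below these, the order of mean levels in wild type IP was Chgb at 160 CPM per kilobase, Cck at 111, Scg3 at 96.2, Pcsk2 at 72.2, Scg2 at 70.1, Pcsk1n at 62.3, Scg5 at 38.6 and Pam at 26.6. Tac1 at 19.1, Adcyap1 at 18.7, Cartpt at 11.2, Chga at 8.16 and Pcsk1 at 6.34 followed. The ranges of each pair of neighbours in this stretch overlapped. A gap without overlap separated Pcsk1 from Vgf, at 1.66 CPM per kilobase, and the lowest were Nppc at 0.418 and Calca at 0.212. The input had another order: Cck led with 344 CPM per kilobase, and Nppa stood at 3.30.

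**Figure D1:**
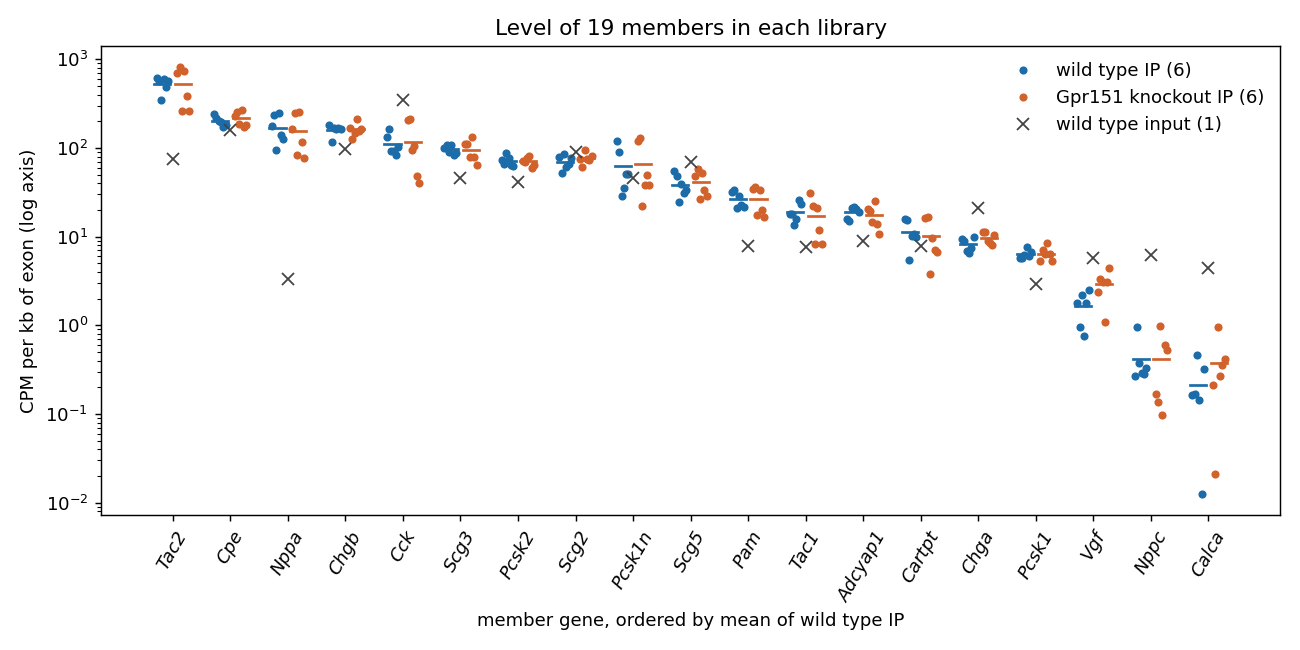
Level per length (CPM per kilobase of exon, log axis) of the 19 members that reached 5 CPM, ordered by the wild type IP mean. Points are libraries, bars are group means and crosses are the single input library; Tac2 is highest in IP at a mean of 532, whereas Cck is highest in the input at 344.

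Counted over the 25 precursors alone, Tac2 took 58.6% to 66.0% of the precursor counts of a wild type IP library and 55.5% to 66.2% of those of a knockout IP library. In the input it took 15.7%. Cck, the precursor of cholecystokinin, took 9.30% to 15.9% in wild type IP, 7.95% to 19.1% in knockout IP and 69.0% in the input. Nppa made up 9.05% to 16.2% of precursor counts in wild type IP and 0.439% in the input. These shares are per count and not per length.

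The comparison of IP with input asks which members were more or less abundant on tagged ribosomes than in the whole dissected tissue. It rests on 1 input library, so it has no replicate error for the input and no test. Whether the input animals match the IP animals in treatment is also unknown, so any difference in treatment cannot be told apart from fraction. A member was called enriched where, after adding 1 CPM to both, the ratio to input was 2 or more in every IP library of a genotype, and depleted at the inverse; 19 members were high enough to be judged. In wild type IP, 3 members were enriched, against 4.71% of all genes judged, and 5 met the mark for depletion, against 11.1% of all genes. In knockout IP, 3 members were enriched against 3.41% of all genes and 2 met the mark for depletion against 7.11%. Of the enriched members, Nppa had an input under 5 CPM and was judged only through the IP libraries, which favours a high ratio. The share of such genes called enriched was not counted. Of the members below the mark, Calca, Nppc and Vgf in wild type IP and Calca and Nppc in knockout IP were judged only because the input reached 5 CPM, which favours a low ratio: of all genes judged only through the input, 57.6% met the mark for depletion in wild type IP and 41.0% in knockout IP. Their ratios are therefore given as values and support nothing. Of the 16 members at 5 CPM or more in wild type IP, the depleted ones were Cck and Chga, against 6.07% of all such genes, and of 17 in knockout IP 0 were depleted, against 3.99%. Both genotypes are set against the same input library. The median member stood at a log2 ratio of 0.37 in wild type IP and 0.36 in knockout IP, beside -0.07 and -0.11 over all genes judged.

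Among the tachykinins, Tac2 (chromosome 10, 127724478 to 127731768, GRCm38) was enriched. Its wild type IP libraries had 481 to 858 CPM with a median of 785, its knockout IP libraries had 359 to 1120.3 CPM with a median of 741, and the input had 102 CPM. All 12 IP libraries were above the input. The log2 ratio to input had a median of 2.93 in wild type IP (2.22 to 3.06) and 2.78 in knockout IP (1.80 to 3.44). Tac1 (chromosome 6, 7554879 to 7565834), the precursor that carries substance P and neurokinin A, had 46.5 to 87.3 CPM with a median of 61.2 in wild type IP, 27.7 to 107 with a median of 55.7 in knockout IP, and 25.9 in the input. Its wild type log2 ratio ran from 0.82 to 1.72, with a median of 1.21, so it was above the input in every wild type library but missed the 2-fold mark in at least 1. Without library 1091, Tac1 passed the mark in wild type IP, at a median of 1.22.

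Of the natriuretic peptides, Nppa (chromosome 4, 148000722 to 148002079) had the highest ratio of the members. Its CPM was 82.6 to 213 with a median of 136 in wild type IP, 66.7 to 219 with a median of 121 in knockout IP, and 2.86 in the input (95% Poisson interval 2.38 to 3.40, counting error only). The lowest wild type library had 28.9 times the input CPM. The log2 ratio had a median of 5.14 in wild type IP (4.44 to 5.79) and 4.96 in knockout IP (4.13 to 5.83). The tables did not treat this gene alike: the antisense gene Gm13054 covers 532 of the 865 exon bases of Nppa (61.5%), and it was listed in the input table, with 26 counts, but in no IP table. Reads that touch both genes can therefore be lost from Nppa in the input alone. A correction added after the data were seen raised the input 2.60-fold for the covered bases and assumed even coverage. The median log2 ratio was then 4.02 in wild type IP (3.31 to 4.66) and 3.83 in knockout IP (3.01 to 4.70). Nppa was still called enriched in both. At 2.86 CPM the input was under the 5 CPM minimum, so Nppa was judged only through the IP libraries, which favours a high ratio. The raised input, 7.42 CPM, met the minimum.

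Nppc, the precursor of C-type natriuretic peptide, went the other way from Nppa. It had 0.277 to 1.01 CPM with a median of 0.325 in wild type IP, 0.10 to 1.01 with a median of 0.361 in knockout IP, and 6.51 in the input (95% Poisson interval 5.78 to 7.31). Its median log2 ratios were -2.50 and -2.48, and with 5 CPM added in place of 1 CPM the mark was missed in both genotypes. Nppb, the precursor of brain natriuretic peptide, had 3 counts in 1 wild type library and 0 in every other library, the input included. Calca encodes calcitonin and, by alternative splicing, calcitonin gene-related peptide. It was also low in IP, with median log2 ratios of -2.72 in wild type IP (-3.04 to -2.24) and -2.46 in knockout IP (-3.02 to -1.68). With 5 CPM added, Calca still met the mark in wild type IP but missed it in knockout IP. Its level was 0.0211 to 0.775 CPM in wild type IP and 0.0356 to 1.62 CPM in knockout IP, against 7.41 CPM in the input.

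Cck (chromosome 9, 121489824 to 121495694) was the most abundant precursor of the input. It stood at 110 to 213 CPM with a median of 127 in wild type IP, at 52.4 to 278 CPM with a median of 131 in knockout IP, and at 449 CPM in the input. All IP libraries were below the input. The median log2 ratio was -1.81 in wild type IP (-2.02 to -1.07), called depleted, and -1.77 in knockout IP (-3.07 to -0.69), which was not called. Adcyap1, the precursor of the peptide PACAP, leaned the other way at a median of 1.13 in wild type IP (0.74 to 1.25) and 0.92 in knockout IP (0.27 to 1.47), without a call. Cartpt, the precursor of the CART peptides, lay near the input, with medians of 0.37 and 0.07.

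The granins lay on both sides of the input. In wild type IP, Chga was depleted at a median log2 ratio of -1.31 (-1.61 to -1.05) and Vgf, judged only through the input, stood at -1.52 (-2.47 to -1.09), while neither met the mark in knockout IP, at -1.08 (-1.32 to -0.86) and -0.82 (-2.09 to -0.36). Both genes encode precursors of bioactive peptides beside their role in the vesicle. Scg3, a granin that binds other vesicle proteins, had 228 to 296 CPM in wild type IP and 125 CPM in the input, and its median ratio of 1.05 (0.86 to 1.23) missed the call. Chgb at 0.77 and Scg2 at -0.37 lay on opposite sides of 0 in wild type IP.

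Of the processing enzymes, Pam (chromosome 1, 97795114 to 98095646), the amidating enzyme, was enriched. Its CPM was 250.0 to 396 with a median of 305 in wild type IP, 199 to 428 with a median of 317 in knockout IP, and 94.2 in the input. The log2 ratio had a median of 1.68 in wild type IP (1.40 to 2.06) and 1.69 in knockout IP (1.07 to 2.17), and every IP library exceeded the input. The convertases Pcsk1 and Pcsk2 had wild type medians of 1.03 (0.94 to 1.33) and 0.78 (0.60 to 1.11), both without a call, and Cpe stood at 0.30 (0.08 to 0.59). In GENCODE M21, Pcsk2 shares exon bases with the antisense genes Pcsk2os1 and Pcsk2os2, which all tables list. Of the convertase regulators, Scg5, the chaperone of Pcsk2 known as 7B2, had a wild type median of -0.94 (-1.49 to -0.34), and Pcsk1n, the precursor of the Pcsk1 inhibitor proSAAS, one of 0.13 (-0.68 to 1.38).

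**Figure D2:**
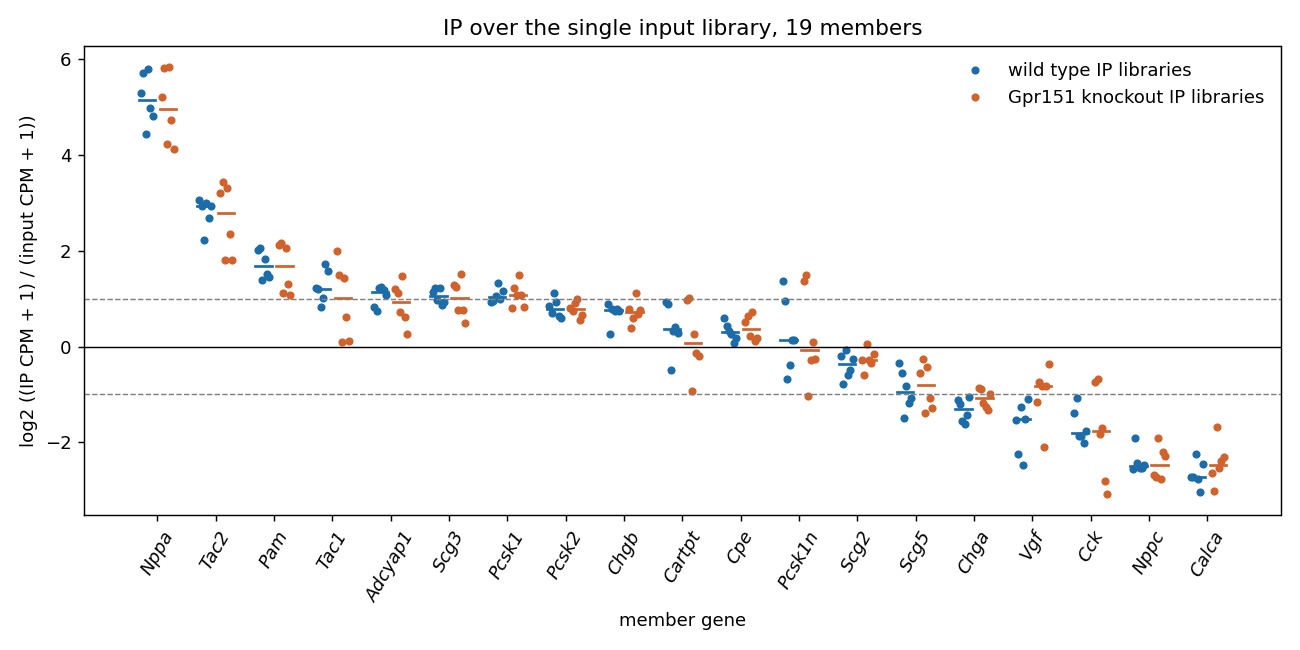
Log2 ratio of each IP library to the single input library, after adding 1 CPM, for 19 members ordered by the wild type median. Points are libraries, short bars are medians and dashed lines mark 2-fold; Nppa, Tac2 and Pam lie above the upper line in all 12 libraries, and Calca and Nppc below the lower line in all 12.

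The wild type calls near the 2-fold mark depended on how libraries were scaled. With TMM scaling, the median ratio of all genes judged rose by 0.20 on the log2 scale in wild type IP and by 0.21 in knockout IP; 6 members were then enriched in wild type IP, with Tac1, Scg3 and Pcsk1 added, and 2 met the mark for depletion, Calca and Nppc. Against these stood 5.92% and 8.73% of all genes. The knockout calls were the same members under that scaling. An edgeR fit, in which the lone input is assumed to vary like the IP libraries, tested 33 members and at 2-fold or more called 7 enriched, against 8.61% of all genes, and 8 depleted, against 14.3%; of the 19 members judged above these were 7 and 4. Library markers also differed between the fractions. The summed level of 12 oligodendrocyte markers was 166 to 851 CPM in wild type IP, 224 to 1609.9 in knockout IP and 3307 in the input, and that of 13 thalamic and lateral habenula markers 650 to 2124, 724 to 3006 and 4364. None of these markers was at 0 in every IP library, and their part in the low ratios of Cck and Chga was not tested. In bulk tissue, fewer cells of a type and less RNA per cell cannot be told apart.

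The comparison of genotypes asked whether loss of Gpr151 goes with other levels of these mRNAs on tagged ribosomes. Of the 36 members, 21 passed the filter on low counts and 0 were called at an adjusted p under 0.05 by the edgeR quasi-likelihood test; over all genes 2 of 14317 were called, or 0.0140%. DESeq2 also called 0 members, with 0.0855% of all genes called. At an unadjusted p under 0.05 edgeR gave 1 member, against 3.06% of all genes, and DESeq2 gave 2, against 653 of the 14317 genes. The estimates lay between -0.26 and 0.85 on the log2 scale, 11 above 0 and 10 below, with a median of 0.00, as over all genes. No member had all libraries of 1 genotype above all of the other; over all genes 0.0427% had knockout above and 0.0924% knockout below.

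The precursors at 5 CPM or more had estimates near 0 with wide intervals where they were abundant and wider ones where they were scarce. Tac2 had a log2 fold change, knockout over wild type, of -0.07 (95% interval -0.61 to 0.47), with 3 knockout libraries above the wild type range and 2 below it. Tac1 stood at -0.26 (-0.88 to 0.36), Nppa at -0.13 (-0.76 to 0.51), Cck at -0.05 (-0.59 to 0.48), Adcyap1 at -0.09 (-0.51 to 0.33) and Cartpt at -0.22 (-0.70 to 0.26). The scarce Calca, at 0.62 (-0.97 to 2.21), and Nppc, at 0.11 (-1.27 to 1.49), had far wider intervals, as did Agrp at -0.14 (-1.20 to 0.92) and Nts at 0.53 (-1.23 to 2.28).

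The machinery of processing was estimated more tightly. Pcsk2 was at -0.02 (95% interval -0.30 to 0.26), Pcsk1 at 0.04 (-0.24 to 0.31) and Cpe at 0.11 (-0.15 to 0.37). Pam was at -0.02 (-0.37 to 0.33), Scg5 at 0.11 (-0.26 to 0.48) and Pcsk1n at 0.00 (-0.41 to 0.42). Among the granins, Scg3 at 0.00 (-0.34 to 0.33), Chgb at 0.04 (-0.17 to 0.26) and Scg2 at 0.15 (-0.13 to 0.43) had intervals on both sides of 0. Chga had 18.1 to 27.1 CPM in wild type IP and 22.3 to 31.1 in knockout IP, with 3 knockout libraries above the wild type range, and a log2 fold change of 0.27 ± 0.13 (SE; unadjusted p = 0.0505, edgeR).

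Several lists of cell type markers leaned with genotype. The 12 astrocyte markers had a median log2 fold change of 0.82, the 12 oligodendrocyte markers 0.79 and the 9 tested GABAergic markers 1.16, with 0 called in each of these 3 lists by edgeR and 1, 0 and 6 at an unadjusted p under 0.05, and with 0 called by DESeq2. The 6 tested hypothalamic markers had a median of 1.85, with 4 above 0, 2 below and 4 at an unadjusted p under 0.05; Oxt was the 1 called by edgeR and by DESeq2. The 8 tested choroid plexus and ependymal markers had a median of 0.85, with 3 at an unadjusted p under 0.05. The mean of their summed level was nevertheless lower in knockout IP, at 84.7 CPM (74.7 to 105) against 91.9 (87.2 to 98.9) in wild type IP. The 8 tested hippocampal markers had a median of 0.14, with 5 above 0 and 3 below. Medians were 0.36 for 9 tested endothelial and mural, 0.45 for 8 microglial and 0.56 for 12 thalamic and lateral habenula markers. The 17 cholinergic habenula markers had a median of -0.19, with 1 above 0, 16 below and 2 at an unadjusted p under 0.05. Gpr151 was the 1 called. Chat, the gene that controls the TRAP tag, stood at -0.38 ± 0.16 (SE, unadjusted p = 0.0324, adjusted p = 0.999, edgeR). For Chat, 3 knockout libraries lay below the wild type range. With the non-neuronal marker level of each library as a covariate, the Chat estimate was -0.23 ± 0.13 (SE). The part of Chat in the genotype estimates of the members was not tested. The summed astrocyte level was 796 to 1715 CPM in wild type IP and 932 to 2633 in knockout IP, and the summed GABAergic level 25 to 190.2 and 72.0 to 386.

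The 1 member at an unadjusted p under 0.05 was Vgf. Its wild type IP libraries had 2.26 to 7.48 CPM with a median of 5.27, and its knockout IP libraries 3.23 to 13.1 CPM with a median of 9.17. The groups overlapped, although 4 of 6 knockout libraries exceeded the highest wild type library. The log2 fold change was 0.85 ± 0.36 (SE; 95% interval 0.06 to 1.63; unadjusted p = 0.0371, adjusted p = 0.999, edgeR), so it did not pass the correction. Vgf was also higher in the input, at 17 CPM, than in any IP library. With the non-neuronal marker level of each library as a covariate the estimate was 0.43 ± 0.28 (SE). Without library 852, or without library 855, it was 0.66, and in all 3 of these fits the unadjusted p was above 0.05. The p was also above 0.05 without library 1092, 1093, 1099, 1101 or 1102, and under 0.05 without 682, 683, 1091, 1094 or 1100 (edgeR). In the later libraries alone the estimate was 0.71, with the unadjusted p above 0.05.

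**Figure D3:**
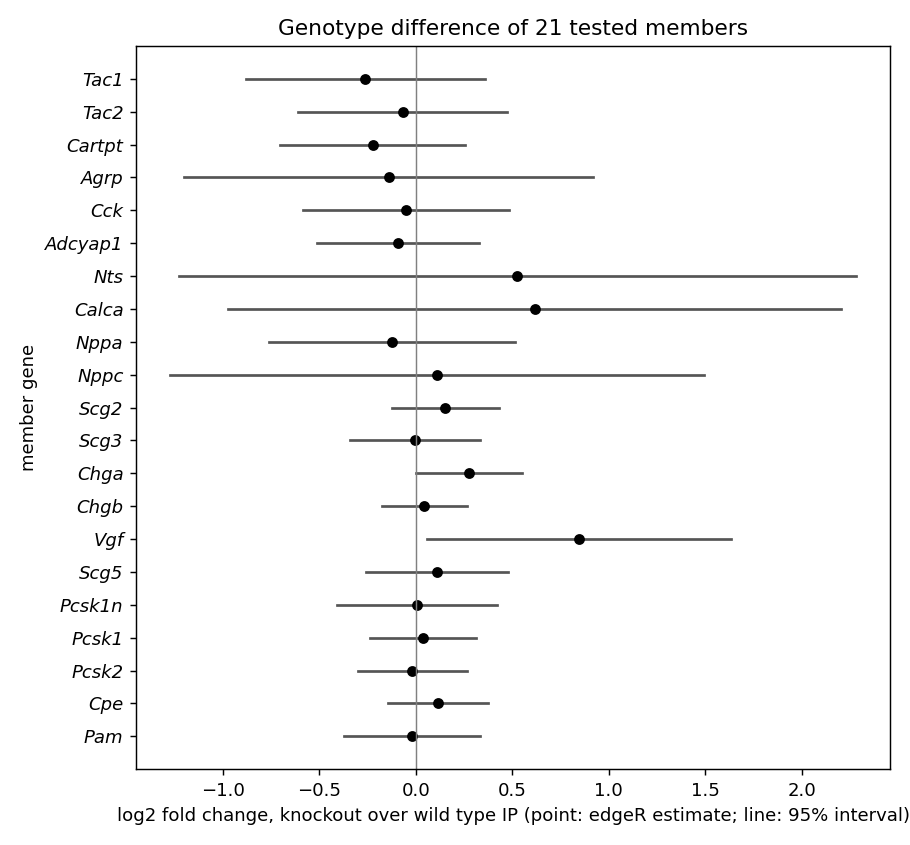
Log2 fold change of knockout over wild type IP for the 21 members that passed the count filter; points are edgeR estimates and lines 95% intervals. Vgf, at 0.85, is the only member whose interval lies on 1 side of 0, and its adjusted p is 0.999.

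Ratios taken within a library do not depend on how libraries are scaled, and 4 were compared between genotypes with an exact two-sided permutation test over 6 against 6 libraries (smallest possible p = 0.00216). The log2 ratio of Tac1 over Tac2 was -3.50 ± 0.37 in wild type IP and -3.66 ± 0.26 in knockout IP (SD, n = 6 each; exact permutation p = 0.418). Pcsk1 over Pcsk2 was -3.98 ± 0.22 and -3.94 ± 0.23 (exact permutation p = 0.740). Scg5 over Pcsk2, a chaperone over its enzyme, was -3.27 ± 0.51 and -3.16 ± 0.46 (exact permutation p = 0.712), and Pcsk1n over Pcsk1, an inhibitor over its enzyme, 1.75 ± 0.89 and 1.72 ± 1.07 (exact permutation p = 0.944). After Benjamini-Hochberg adjustment over the 4 ratios each exact permutation p was 0.944. None of the 4 differed between genotypes by more than the spread of the libraries. The test ignored the library set, so this spread includes differences between earlier and later libraries. In the later libraries alone, the differences, knockout minus wild type, were -0.34, 0.02, 0.14 and -0.15 in the same order (exact permutation p = 0.143, 0.971, 0.629 and 0.571, smallest possible p = 0.0286). For Tac1 over Tac2 the difference was 0.64 between 683 and 682 and -0.23 between 855 and 852.

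The levels of several members differed widely among libraries of 1 genotype. Within the later knockout libraries, Tac2 was at 1021 CPM in library 1100, 526 in 1101, 362 in 1099 and 359 in 1102. Nppa followed the same order, with 219 CPM in 1100, 101 in 1101, 71.5 in 1099 and 66.7 in 1102, and Pam ran from 398 CPM in 1100 to 199 in 1102. Libraries 1099 and 1102, lowest in these 3 members, were those with the highest non-neuronal marker levels. Without libraries 1091, 1099 and 1102, left out with their values known, the genotype estimate was 0.16 for Tac2, 0.06 for Nppa and 0.12 for Pam, and 0 members were called.

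The earlier and later libraries differed for some members. Of 17 members at a mean of 5 CPM or more, 3 had all 4 earlier libraries above all 8 later ones, against 10.3% of all genes, and 0 had the reverse, against 6.48%. Pcsk1n (chromosome X, 7919822 to 7924410) was at 251 ± 39.1 CPM in the earlier and 85.7 ± 23.0 CPM in the later libraries (SD). Cck was at 233 ± 50.1 and 108 ± 32.2 CPM, and Cartpt at 20.5 ± 0.768 and 10.1 ± 3.24 CPM. The ratio of Pcsk1n over Pcsk1 moved with it, at a log2 of 2.89 ± 0.24 in the earlier and 1.16 ± 0.47 in the later libraries, without overlap. Pcsk2 overlapped, at 555 ± 24.8 and 568 ± 83.9 CPM. The sets also differ in the symbols their tables list, and what else set them apart is not given in the labels.

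**Figure D4:**
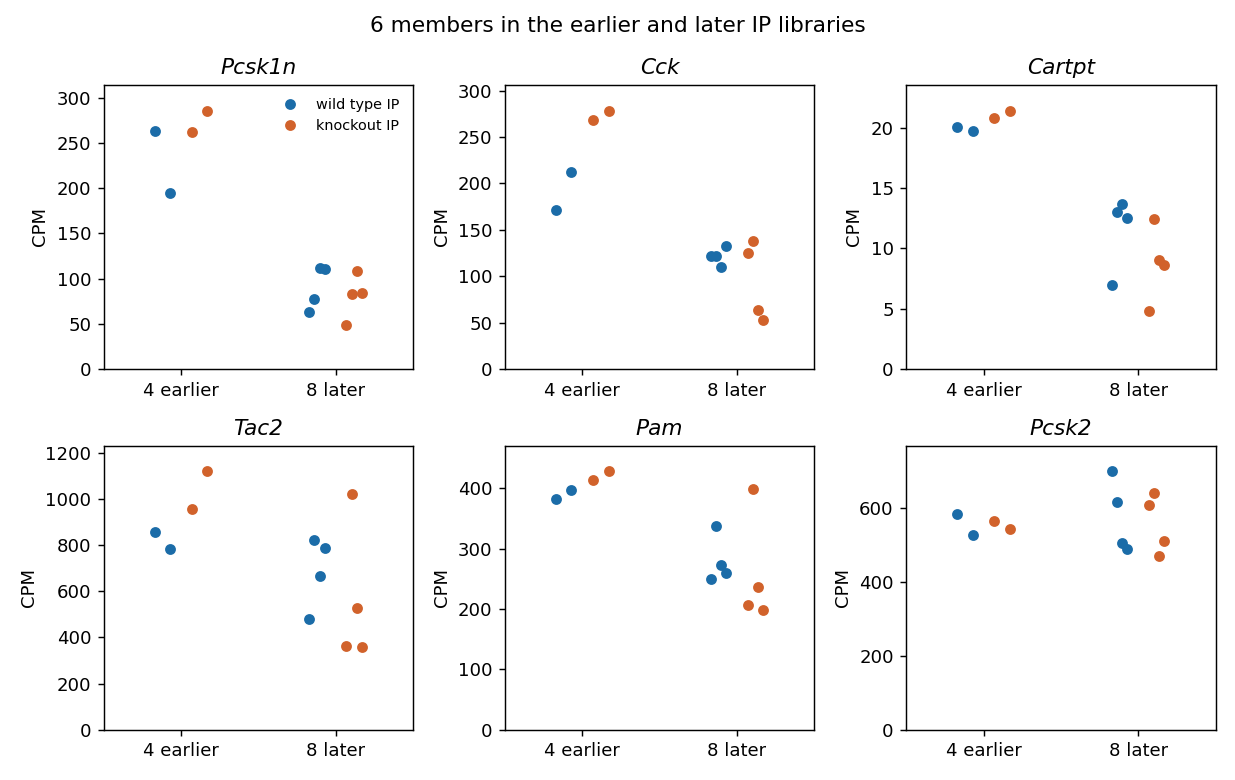
CPM of 6 members in the 4 earlier and 8 later IP libraries; each point is a library, coloured by genotype, and each vertical axis starts at 0. Pcsk1n, Cck and Cartpt are higher in all 4 earlier libraries than in any later one, whereas Tac2, Pam and Pcsk2 overlap.

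Genotype estimates were therefore also compared between the earlier and later libraries. In a fit of the 4 earlier libraries alone, 6 of 23 members tested had an unadjusted p under 0.05, against 4.75% of all genes. All 6 had knockout above wild type and none passed the correction. They were Cck at a log2 fold change of 0.51, Tac1 at 0.53, Tac2 at 0.33, Vgf at 1.09, Adcyap1 at 0.37 and Pcsk1n at 0.26. That fit compared 683 with 682 and 855 with 852, so its p-values rested largely on spread pooled over genes. The 8 later libraries alone gave 0 of 21, against 2.27% of all genes. The lowest adjusted p of these 6 was 0.235, for Cck (edgeR). The edgeR interaction test called 0 members and 0 of 14317 genes. The lowest unadjusted p among the members was that of Tac1, at 0.0420 (adjusted p = 1, edgeR). In log2 CPM after adding 1, Tac1 in knockout minus wild type was 0.79 for libraries 683 and 682, 0.28 for 855 and 852, and -0.73 for the means of the later libraries.

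The 17 scarce members gave mostly single or double digit counts, and 16 of them had 0 counts in at least 1 IP library. For 8 of them, Nts, Nmb, Grp, Nmu, Crh, Ucn3, Gnrh1 and Calcb, the input CPM was above every IP library. Of all genes that stayed under 5 CPM in each group and had at least 1 count, 36.7% had the same order. Nts, the precursor of neurotensin, had 133 counts in the input (3.02 CPM) and at most 1.27 CPM in an IP library. Nmu, the precursor of neuromedin U, had 11 counts in the input and 2 counts in all IP libraries together. Nmb and Grp, precursors of bombesin-like peptides, had 63 and 58 counts in the input and at most 25 and 22 in an IP library. Among the releasing factors, Crh had 37 counts in the input and at most 12 in an IP library, Ucn3, a relative of Crh, 45 and 11, and Gnrh1, which drives gonadotropin release, 19 and 8. Calcb, which encodes the second calcitonin gene-related peptide, had 32 and 12. Except for Npy, which had 159 counts in the input (3.60 CPM), the remaining ones were scarce in both fractions. Ghrh, which encodes the growth hormone-releasing hormone, had 7 counts in the input and at most 22 in an IP library, Nms, the precursor of neuromedin S, 4 and 11, and Ucn, which encodes urocortin, 3 and 4. Only Agrp, which encodes the agouti-related peptide, was counted in each IP library, with 141 counts over wild type IP and 126 over knockout IP. Agrp shares exon bases with Ctcf on the opposite strand and with Gm5914, which was listed in the input table only. Nmb shares bases with Sec11a and Pmch with Parpbp, so their few reads cannot be assigned firmly.

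Counts of some feeding and gut-brain peptides were unevenly spread over the libraries. Npy, which encodes neuropeptide Y, had 101 and 225 counts in libraries 682 and 683 and 0 to 41 in the other IP libraries, so that both held 78.7% of its IP counts. Vip, which encodes vasoactive intestinal peptide, had 34 and 80 counts in the same libraries, 94.2% of its IP counts, and at most 3 in any other IP library. The lateral hypothalamic precursors Hcrt (orexin) and Pmch (melanin-concentrating hormone) had 65 and 63 counts in library 682, 19 and 21 in 683, 39 and 24 in 1100, and 7 and 21 in 855, so that 682 and 683 held 56.8% and 57.9% of their IP counts. In the input they had 4 counts each. Among hypothalamic markers, Oxt had 1 to 3 counts in the 6 wild type IP libraries, 16 to 47 in the 6 knockout IP libraries and 128 in the input. Avp leaned the same way with a slight overlap, at 0 to 11, 10 to 36 and 135 counts. Pomc overlapped between genotypes, with 89 to 182 counts in wild type IP and 55 to 239 in knockout IP. The summed level of 11 hypothalamic markers was 2.80 to 8.25 CPM in wild type IP, 4.57 to 12.1 in knockout IP and 15.9 in the input, none was at 0 in every IP library, and their part in these counts was not tested.

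**Figure D5:**
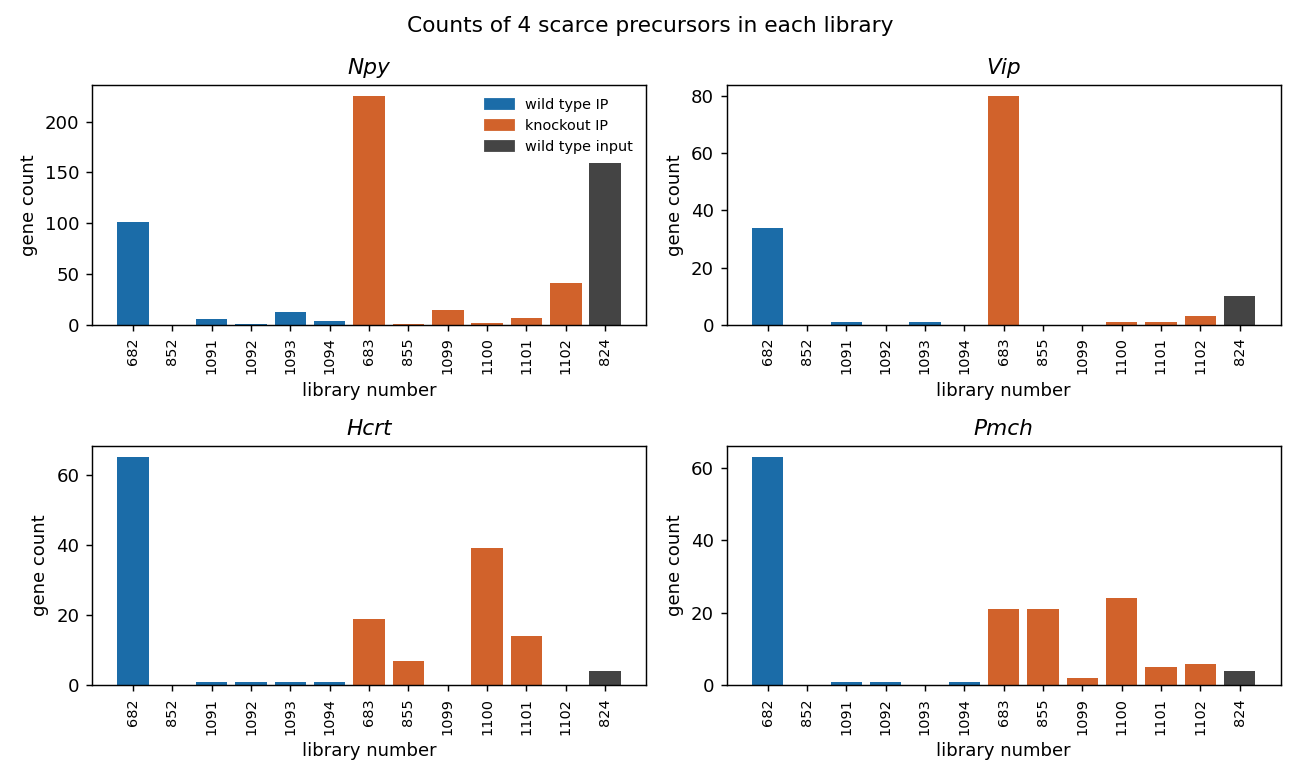
Gene counts of Npy, Vip, Hcrt and Pmch in each of the 12 IP libraries and the input. Npy reaches 225 and Vip 80 counts in library 683, and Hcrt and Pmch reach 65 and 63 counts in library 682, while most other IP libraries have few or none.

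Other genes of the pathway were read from lists chosen with earlier results of these data known. Of 40 genes of dense-core vesicle biogenesis and release, 39 were tested for genotype and 0 were called by edgeR or DESeq2. Their median log2 fold change was 0.09 beside 0.00 over all genes. At an unadjusted p under 0.05 edgeR gave 0, against 3.06% of all genes, and DESeq2 2, against 653 of 14317 genes. In wild type IP over input, 5 of 37 were enriched, against 4.71% of all genes judged, and 2 depleted, against 11.1%. Cadps2, which primes dense-core vesicles for release, was enriched at a median log2 ratio of 2.84 in wild type IP and 2.62 in knockout IP, whereas its paralog Cadps had a median of -2.86 in wild type IP that was not called. Slc30a3, a vesicular zinc transporter judged only through the input, stood at -2.97, and the vesicle GTPase Rab3c was depleted at -2.86.

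Of 29 other processing enzymes, 27 were tested and 0 called by either tool, with 0 at an unadjusted p under 0.05 by either, and a median of 0.07. Mme, the peptide-degrading enzyme neprilysin, was enriched in wild type IP at 2.12 (1.91 to 2.61) and in knockout IP at 2.16; it was the 1 enriched gene of the 24 judged, against 4.71% of all genes. Of 42 other precursors, 16 were tested and 0 called by either tool. By edgeR 3 had an unadjusted p under 0.05, against 3.06% of all genes, and by DESeq2 4, against 653 of 14317 genes. The list's median was 0.34. Sst, the precursor of somatostatin, stood at 0.95 ± 0.27 (SE; unadjusted p = 0.00385, adjusted p = 0.999, edgeR), with 4.34 ± 4.71 CPM in wild type IP, 8.84 ± 10.9 in knockout IP (SD, n = 6 each) and 25.5 in the input. Of the 9 judged against the input, 5 met the mark for depletion in wild type IP. Over all genes judged the share was 11.1%, and over those judged only through the input 57.6%. Among the 5, Igf1 at -3.57, Apln at -3.54 and Igf2 at -3.25 had wild type IP means under 5 CPM and were judged only through the input. Their ratios, and the count of 5, are therefore values alone.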

How the data were processed

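Each deposited table holds 1 library as raw counts per gene. The submitters' processing notes name STAR 2.3.0e, HTSeq, DESeq2 and the mm10 build. Settings, annotation and strand use are not given, so reads of a gene and of its antisense neighbour may be mixed. RNA was amplified with an Ovation V2 kit, per the labels' protocols. The tables list 32531 (earlier), 24454 (later) and 37328 (input) symbols; genotype used the 23857 shared by the IP libraries. Summary lines were left out: in the IP libraries, 9.44% to 16.6% of alignments were in no gene and 25.2% to 53.2% mapped to several places. The share counted as ambiguous between genes was 0.581% to 1.36% in the IP libraries and 3.98% in the input, whose table lists more symbols. Its part in the ratios to input was not tested.

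Genotype was tested with edgeR 4.0.16 (R 4.3.3): TMM, filterByExpr (minimum count 10, total 15), robust quasi-likelihood, library set as a term, two-sided p adjusted by Benjamini-Hochberg over all genes, threshold 0.05. DESeq2 1.42.0 was an alternative. CPM used the 22682 symbols; IP over input used a pseudocount of 1 CPM and a minimum of 5 CPM, and within-library ratios 0.5 CPM. Exon lengths and positions are from GENCODE M21 (GRCm38, the mm10 assembly). Values were given for members at 5 CPM or more in a group, and other lists by their smallest p or largest ratio. Replicate numbers follow accession order and pair nothing. The members and lists were chosen with earlier results of these data known. Pools of mice are the replicates. The natriuretic peptide sequences are not reported here.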

Additional observations from a re-analysis of the deposited data

Results flagged for a closer look

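Among 46 sets of 6 libraries (19 members and 4 within-library ratios in each genotype), 3 had a library whose gap to its nearest neighbour took more than 0.625 of the range, the 95% limit of Dixon's test for 6 values; chance alone passes it in about 1 set in 20. Nppc in wild type IP was at 1.01 CPM in library 852 against 0.388 in the next, a gap of 0.848 of the range. Chgb in the same library was at 318 CPM, against 444 in the next library up, a gap of 0.708. The Tac1 over Tac2 log2 ratio of knockout library 683 was -3.16 against -3.66 in the next, a gap of 0.670.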

How the results depend on the processing

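Of the members, 0 were called by genotype in any alternative run, the leave-one-out fits included; uncalled edgeR estimates changed sign in several. With earlier libraries only, they were Tac1 0.53, Tac2 0.33, Cartpt 0.076, Agrp 1.20, Cck 0.51, Adcyap1 0.37, Nts -1.43, Scg3 0.075, Chgb -0.00155 and Pam 0.10. With the non-neuronal covariate, they were Tac2 0.17, Cartpt 0.0069, Agrp 0.043, Cck 0.0046, Adcyap1 0.0062, Nts -0.16, Nppa 0.20, Nppc -0.51, Scg3 0.11 and Pam 0.12. Without libraries 1091, 1099 and 1102, they were Tac1 0.032, Tac2 0.16, Agrp 0.13, Cck 0.089, Adcyap1 0.14, Nts -0.89, Nppa 0.056, Nppc -0.57, Scg3 0.13, Pcsk2 0.024 and Pam 0.12. With later libraries only, Pcsk1n was -0.14; without the set term, Cck was 0.092. Scg3 was 0.000598 with DESeq2, 0.000595 with RLE factors and 0.00202 at a 1 CPM minimum. With 1 replicate left out, the range was -0.24 to 0.024 for Adcyap1, -0.39 to 0.11 for Agrp, -0.19 to 0.10 for Cck, -0.023 to 0.073 for Chgb, -0.43 to 0.10 for Nppa, -0.31 to 0.55 for Nppc, -0.31 to 0.98 for Nts, -0.18 to 0.054 for Pam, -0.040 to 0.092 for Pcsk1, -0.11 to 0.12 for Pcsk1n, -0.069 to 0.060 for Pcsk2, -0.15 to 0.074 for Scg3, -0.042 to 0.19 for Scg5 and -0.31 to 0.054 for Tac2. The 2 genes called over the whole table became 12 with DESeq2, 1 at a 1 CPM minimum, 1 without the 3 libraries, 0 with later libraries only, and 0 to 2 with 1 replicate left out (0 without library 683). Within-library ratio differences ran from -0.021 to 0.10 (Pcsk1 over Pcsk2), -0.32 to 0.22 (Pcsk1n over Pcsk1) and -0.073 to 0.24 (Scg5 over Pcsk2) with 1 replicate left out. Over input, wild type calls were 6 enriched and 2 depleted with TMM or with CPM over all symbols listed. The shares of all genes were 5.92% and 8.73% with TMM, and 5.83% and 8.33% over all symbols listed. With edgeR on pooled spread and no 5 CPM minimum, the calls were 7 and 8 over 33 members tested, against 8.61% and 14.3% of all genes. A pseudocount of 5 CPM gave 2 depleted in wild type, against 7.66% of all genes, and 0 in knockout, against 4.48%. A 4-fold mark gave 2 enriched in wild type, Tac2 and Nppa, against 1.60%, and 1 depleted, against 2.75%. In knockout the 4-fold mark gave 1 enriched, against 0.965%, and 0 depleted, against 1.22%. The knockout ratio of Pcsk1n was 0.15 with TMM and 0.12 over all symbols, and -0.25 to 0.10 with 1 replicate left out; with later libraries only, Pcsk1n in wild type was -0.12 and Cartpt in knockout -0.17 (-0.14 to 0.27 with 1 replicate left out). The cause of these shifts was not tested. No paired analysis was possible because the labels give no replicate number shared between groups; the library set term of the genotype fit already compares 683 with 682 and 855 with 852.

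The single input library has no replicate error, the names of the deposited tables mention saline for most libraries and saccharin for the input while the labels give no treatment, so whether the input animals match the IP animals in this respect is unknown. Scarce members were limited by counts.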
